A study of Mus musculus with 6 samples.

Results

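Of 10 BCL2-family genes measured in SCC7 cells, Bid and Bcl2l11, which encode the death-promoting proteins BID and BIM, were higher in irradiated than in control cells. The genes were picked by symbol from a deposited table of 17030 genes, and all 10 were found. They comprise 4 protective members (Bcl2, Bcl2l1, Bcl2l2 and Mcl1), 2 pore-forming members (Bak1 and Bax) and 4 BH3-only members (Bid, Bad, Bcl2l11 and Bbc3). SCC7 is an established line from a squamous carcinoma of the mouse. The irradiated group (n = 3 libraries) had received radiotherapy, with 9 Gy given in the treatment protocol, and the control group (n = 3) had received none. Both groups were the same line grown in high-glucose medium with 10% serum. The time given for all 6 libraries is day 0, and how long after irradiation the cells were harvested is not known. Whether a group's libraries are separate cultures is not labelled, and the p-values measure the spread between these libraries, which may be technical.

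Proteins of the BCL2 family decide whether the outer mitochondrial membrane is opened in apoptosis. BAX and BAK form the pore through which cytochrome c leaves. BCL2, BCL-XL (Bcl2l1), BCL-W (Bcl2l2) and MCL1 hold them in check, and BH3-only proteins bind the protective members or activate the pore formers. After DNA damage, p53 is known to induce Bbc3, which encodes PUMA, and Bax, whereas Bcl2l11 is known as a target of FOXO transcription factors.

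The stretch upstream of a RefSeq start site (build GRCm38.p6) is shown for the members that rose and for the textbook p53 targets Bax and Bbc3, because known motifs of p53 and FOXO can be looked for there. Capitals mark a motif match on either strand and all other bases are in lower case. The Bcl2l11 stretch is chr2:128125788-128126037 (plus strand), that of Bid is chr6:120916854-120917074 (minus), that of Bax is chr7:45466899-45467148 (minus) and that of Bbc3 is chr7:16310011-16310260 (plus, the second of its 3 listed starts). Bases within GENCODE exons at the start-site end of the Bid stretch are left out. Most of the Bid stretch lies inside the span of the gene (120893119 to 120917062), before a start within it. The Bbc3 stretch also lies inside its gene's span (16308398 to 16318334). For Bid and Bbc3 the stretch is therefore not the sequence before the outermost start. For Bcl2l11 and Bbc3 the start shown is the one with a match, and their other listed starts had none. The capitals are the p53 half-site in Bax and the FOXO core in Bcl2l11 and, as its reverse complement, in Bbc3.
Bcl2l11: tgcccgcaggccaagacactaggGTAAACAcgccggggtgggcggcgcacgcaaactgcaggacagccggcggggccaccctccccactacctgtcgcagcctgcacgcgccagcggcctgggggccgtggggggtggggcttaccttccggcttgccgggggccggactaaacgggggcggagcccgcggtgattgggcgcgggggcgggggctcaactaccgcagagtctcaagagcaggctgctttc
Bid: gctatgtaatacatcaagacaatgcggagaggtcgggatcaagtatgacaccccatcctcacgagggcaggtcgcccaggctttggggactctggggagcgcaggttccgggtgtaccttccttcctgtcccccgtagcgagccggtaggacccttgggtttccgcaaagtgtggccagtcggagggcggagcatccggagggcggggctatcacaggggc
Bax: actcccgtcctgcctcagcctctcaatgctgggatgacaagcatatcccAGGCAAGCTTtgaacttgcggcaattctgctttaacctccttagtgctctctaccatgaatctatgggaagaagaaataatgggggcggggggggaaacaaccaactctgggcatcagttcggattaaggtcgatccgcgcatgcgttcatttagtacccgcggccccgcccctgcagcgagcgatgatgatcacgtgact
Bbc3: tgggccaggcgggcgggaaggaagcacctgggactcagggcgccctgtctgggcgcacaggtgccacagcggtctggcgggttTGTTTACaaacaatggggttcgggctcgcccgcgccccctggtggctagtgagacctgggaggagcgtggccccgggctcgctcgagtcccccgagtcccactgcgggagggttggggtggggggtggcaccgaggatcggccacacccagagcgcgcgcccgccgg

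Each window held the 250 bases before a start, and the 10 members had 16 windows between them. The FOXO core GTAAACA (both strands) was present in 2 of the 16, one of Bcl2l11 and one of Bbc3, against 3.17% of 32851 windows of all genes. The p53 half-site (both strands) was present in 1, that of Bax, against 7.13% of all windows. The interferon response core (GAAA, any 2 bases, GAAA) and the STAT motif TTCNNNGAA were in none of the 16, against 2.98% and 7.02% of all windows. The marked matches did not overlap one another. A match describes these letters only, and the deposited data hold no measure of binding.

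The libraries differed in ways that touch several members. Values are FPKM, fragments scaled by transcript length and library size, and the number of reads behind them is unknown. The FPKM sum was 652691 to 663489 in irradiated libraries, against 878514, 982553 and 693961 in controls 1, 2 and 3. Control 3 correlated across genes at 0.960 to 0.966 with irradiated libraries and at 0.956 and 0.928 with controls 1 and 2. On log2(FPKM + 1) values, the SD of the median gene within a group was 0.08 for irradiated and 0.30 for control libraries. Limma assumes 1 spread for both groups, so its p-values are approximate. Of 7 epithelial marker genes, only Krt8 and Krt18 exceeded 2 FPKM, and Krt5, Krt14, Trp63, Cdh1 and Epcam lay at or below 1.1 FPKM in every library. The 7 summed to 484 to 496 FPKM in irradiated libraries and 700 to 1890 FPKM in controls, nearly all of it Krt8 and Krt18, and Krt18 fell. The sum of the 4 fibroblast genes was 164 to 188 FPKM in irradiated libraries and 109 to 198 FPKM in controls, and Col1a1 and Dcn rose. The leukocyte genes found (3 of 4) summed to 7.37 to 9.19 FPKM in irradiated libraries and 2.89 to 5.04 FPKM in controls, with the pan-leukocyte gene Ptprc at 0.03 or less in all libraries. Lyz2 was at 2.37 to 3.53 FPKM in irradiated libraries and 0.30 to 0.78 FPKM in controls, and met the filter of 1 FPKM in 3 libraries through the irradiated group alone, so its call is no separate evidence. The part of these differences in the results below was not tested. In bulk RNA, a change in the share of cells that carry a transcript and a change in RNA per cell cannot be told apart.

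The question put to the table was which family transcripts differ after radiotherapy. Limma was run on log2(FPKM + 1) over the 11103 genes that reached 1 FPKM in 3 or more libraries, and a gene passed at a Benjamini-Hochberg adjusted p below 0.05. All 10 members met the filter. In irradiated cells 2 of the 10 rose and none fell, where 12.0% of all genes passed, 9.24% upward and 2.77% downward. Those that rose were 2 of the 4 BH3-only members. By limma, 0 of the 4 protective and 0 of the 2 pore-forming members passed. One protective member, Bcl2l1, had an unadjusted p below 0.05, as did 38.3% of all genes. The median log2 fold change was -0.26 for protective, -0.07 for pore-forming and 0.79 for BH3-only members, against 0.17 for all genes. Trimmed-mean scaling moved the median of all genes to 0.03 and quantile normalization to -0.02, and the genes called numbered 711 higher and 445 lower under the trimmed mean, and 645 and 601 under quantile normalization, where the unscaled values gave 1026 and 308. The groups did not overlap for 4 of the 10 members, against 45.4% of all genes, 31.8% with all irradiated libraries higher and 13.7% with all lower. Those members were Bid, Bcl2l11 and Bak1, with all irradiated libraries higher, and Bcl2l1, with all lower.

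**Figure D1:**
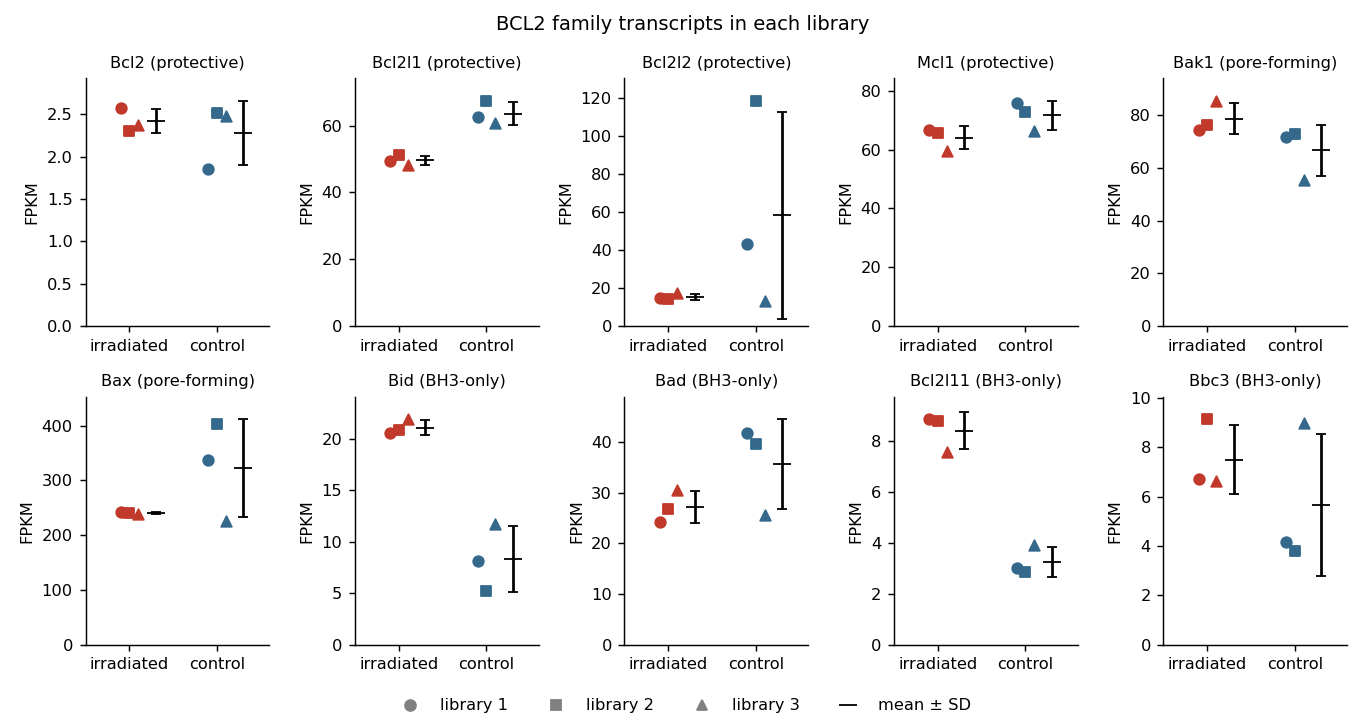
FPKM of the 10 members in each library (red, irradiated, and blue, control, with a marker for each library number), with the group mean and SD in black (n = 3 each) and every axis starting at 0. The irradiated libraries of Bid and Bcl2l11 lie above all controls, whereas controls 1 and 2 of Bcl2l2, Bax and Bad lie apart from control 3.

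**Figure D2:**
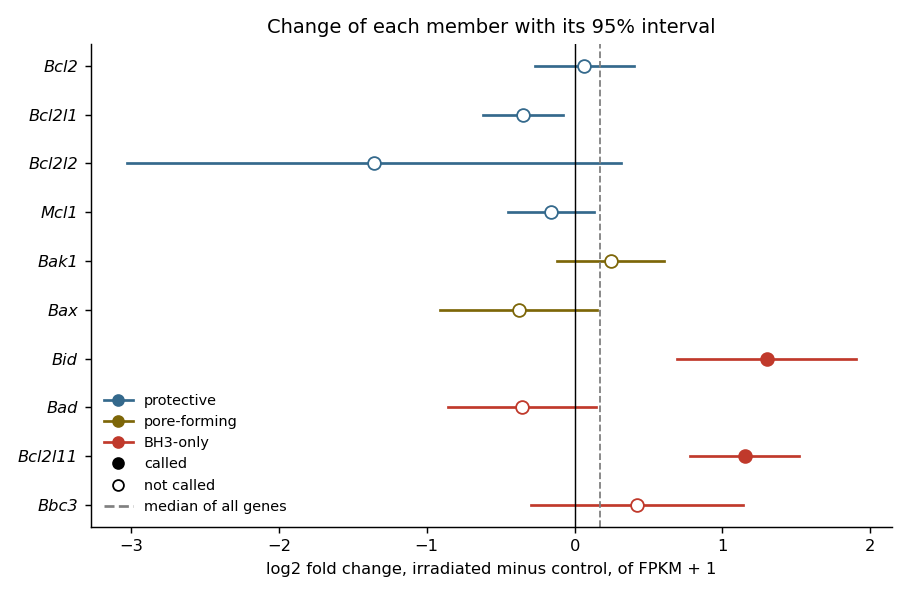
Log2 fold change of each member, irradiated minus control, on the FPKM + 1 scale, with its 95% interval from limma. Filled points mark the members that passed (Bid and Bcl2l11), and the dashed line is the median of all genes tested, 0.17.

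The BH3-only member Bcl2l11 (NCBI gene 12125, chromosome 2, 128126038 to 128162547) encodes BIM, which binds all the protective members and can activate BAX and BAK directly. It measured 8.84, 8.78 and 7.57 FPKM in irradiated libraries 1 to 3, against 3.01, 2.83 and 3.92 FPKM in controls 1 to 3. Every irradiated library lay above every control, and control 3 was the nearest control. The means were 8.40 ± 0.717 FPKM in irradiated and 3.25 ± 0.584 FPKM in control cells (SD, n = 3 each), a 2.58-fold ratio of means. The log2 fold change was 1.15 (SE 0.15, limma adjusted p = 0.00814). With controls 1, 2 and 3 taken singly it was 1.23, 1.29 and 0.93. The call ended without irradiated library 1, 2 or 3 (limma adjusted p = 0.104, 0.108 and 0.0712) and without control 1 (0.0610), settings in which 0.516% to 1.63% of all genes passed, while the log2 fold change stayed between 1.08 and 1.26 with any library left out.

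Bid (NCBI gene 12122, chromosome 6, 120893119 to 120917062) encodes a BH3-only protein that caspase-8 cleaves to a fragment, which carries the signal of death receptors to the mitochondrion. Bid measured 20.54, 20.83 and 21.89 FPKM in irradiated libraries 1 to 3, against 8.11, 5.25 and 11.68 FPKM in controls 1 to 3. All irradiated libraries were higher than all controls, and control 3 was the nearest of these to them. The means were 21.1 ± 0.711 FPKM in irradiated and 8.35 ± 3.22 FPKM in control cells (SD, n = 3 each). They differed by 1.30 on the log2 scale (SE 0.25, limma adjusted p = 0.0291). With controls 1, 2 and 3 taken singly this was 1.28, 1.82 and 0.80. The call ended without irradiated library 1, 2 or 3 (limma adjusted p = 0.165, 0.179 and 0.152) or without control 1 (0.128). Of the 3550 exon bases of Bid, 628 lie under exons of Bcl2l13 on the opposite strand. Bcl2l13 measured 11.48, 11.36 and 12.30 FPKM in irradiated libraries and 7.33, 5.03 and 10.86 FPKM in controls. The sources used here do not state whether the counting used strand, so reads of the shared stretch cannot be told apart.

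Bbc3 encodes PUMA, a BH3-only protein and textbook p53 target. It measured 6.73, 9.13 and 6.65 FPKM in irradiated libraries, against 4.17, 3.81 and 9.00 FPKM in controls. Control 3 lay within the irradiated range and controls 1 and 2 below it. Its log2 change was 0.42 (95% interval -0.30 to 1.14, limma adjusted p = 0.319), and it was 0.76 without control 3 (limma adjusted p = 0.00195 in a setting that passed 69.1% of all genes) and -0.25 with control 3 as the only control.

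Bad encodes a BH3-only protein held inactive by phosphorylation under growth factor signalling. It measured 24.20, 26.75 and 30.53 FPKM in irradiated libraries, against 41.83, 39.62 and 25.60 FPKM in controls. Control 3 again lay within the irradiated range, with controls 1 and 2 above it. On the log2 scale the difference was -0.36 (95% interval -0.86 to 0.14, limma adjusted p = 0.240). It was -0.57 without control 3 (limma adjusted p = 0.00282, where 69.1% of all genes passed) and 0.08 with control 3 as the only control. Of the 2558 exon bases of Bad, 524 lie under exons of Gpr137 on the other strand. Gpr137 measured 14.22, 16.30 and 15.20 FPKM in irradiated libraries and 19.53, 24.32 and 9.80 FPKM in controls 1 to 3.

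Bad made up a smaller part of the summed BH3-only FPKM in irradiated libraries, with 40.1%, 40.8% and 45.8%, against 73.2%, 76.9% and 51.0% in controls 1 to 3. The part of Bid was 34.1%, 31.8% and 32.8% in irradiated libraries and 14.2%, 10.2% and 23.3% in controls. For Bcl2l11 it was 14.7%, 13.4% and 11.4% in irradiated libraries, against 5.27%, 5.49% and 7.81% in controls. The BH3-only sum itself was 60.3, 65.5 and 66.6 FPKM in irradiated libraries and 57.1, 51.5 and 50.2 FPKM in controls. All irradiated libraries lay above all controls in the shares of Bid and Bcl2l11 and in the sum, and below them in the share of Bad. The sum contains Bid and Bcl2l11, so these separations partly restate their own.

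Among the pore formers, Bax was the most abundant member of the family. It measured 242.32, 240.56 and 239.52 FPKM in irradiated libraries, against 337.58, 402.85 and 226.42 FPKM in controls. The irradiated libraries lay within 3 FPKM of one another and between control 3 and the other two controls. Bax had a log2 fold change of -0.38 (95% interval -0.91 to 0.15, limma adjusted p = 0.238). Its sign turned with control 3 as the only control (0.09). Without control 3 the change was -0.61 (limma adjusted p = 0.00119, where 69.1% of all genes passed). The order of the controls in Bax is the order of their FPKM sums. On the same strand, Gm45808 shares 192 of the 1576 exon bases of Bax and was not analysed here.

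Bak1 encodes BAK, the pore former that sits in the outer mitochondrial membrane already in healthy cells. It measured 74.37, 76.48 and 85.48 FPKM in irradiated libraries, against 71.79, 73.00 and 55.58 FPKM in controls. All irradiated libraries were higher than all controls, though irradiated library 1 and control 2 differed by little. Bak1 had a log2 fold change of 0.24 (95% interval -0.12 to 0.60, limma adjusted p = 0.262), 0.08 after trimmed-mean scaling and 0.49 with control 3 as the only control. Of the 2407 exon bases of Bak1, 614 lie under exons of Ggnbp1 on the other strand, which was at 1.24 FPKM or less in all libraries. Bax supplied 76.5%, 75.9% and 73.7% of the summed FPKM of both pore formers in irradiated libraries, against 82.5%, 84.7% and 80.3% in controls.

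Of the protective members, Bcl2l1 came nearest to passing. Its protein BCL-XL binds BAX, BAK and several BH3-only proteins, and FPKM per gene does not separate it from the short, death-promoting splice form. Bcl2l1 measured 49.32, 51.16 and 48.23 FPKM in irradiated libraries, against 62.56, 67.40 and 60.67 FPKM in controls. The groups did not overlap, and all controls, control 3 included, lay above the irradiated libraries. The log2 fold change was -0.35 (SE 0.11, 95% interval -0.62 to -0.08, unadjusted p = 0.0182 by limma, limma adjusted p = 0.0781). Scaling by the trimmed mean gave -0.51 and quantile normalization -0.28 (limma adjusted p = 0.0558 and 0.111). Bcl2l1 passed without control 3 (limma adjusted p = 0.00671), a setting in which 69.1% of all genes passed. With control 3 as the only control its log2 fold change was -0.29.

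Mcl1 encodes a protective protein with a short half-life. It measured 66.75, 65.62 and 59.47 FPKM in irradiated libraries, against 75.92, 72.65 and 66.21 FPKM in controls, with an overlap of irradiated library 1 and control 3. The log2 fold change was -0.16 (95% interval -0.45 to 0.13, limma adjusted p = 0.352). Bcl2, the founding member, was the least abundant of the 10, with 2.58, 2.30 and 2.38 FPKM in irradiated libraries and 1.85, 2.52 and 2.48 FPKM in controls. Its groups overlapped, and its log2 fold change was 0.06 (95% interval -0.27 to 0.40, limma adjusted p = 0.746). The sign turned with the trimmed mean (-0.05) and with quantile normalization (-0.39). Of the 9157 exon bases of Bcl2, 558 lie under exons of the antisense gene D630008O14Rik, which was not analysed here.

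Bcl2l2 encodes BCL-W and had the largest SD relative to its mean among controls, 54.4 FPKM on a mean of 58.2 FPKM. It measured 14.67, 14.45 and 17.13 FPKM in irradiated libraries, against 43.24, 118.54 and 12.96 FPKM in controls. Control 3 lay below every irradiated library and controls 1 and 2 far above. The log2 fold change was -1.36 (95% interval -3.03 to 0.31, limma adjusted p = 0.191). It was -0.60 without control 2 and 0.23 with control 3 as the only control. Without control 3 it was -2.15 (limma adjusted p = 0.00282, where 69.1% of all genes passed). Another gene of the GENCODE annotation on the same strand, Gm20521, shares 594 of the 4462 exon bases of Bcl2l2, and it was not analysed here.

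The order of levels also differed between the groups. In irradiated cells it ran from Bax (241 FPKM) through Bak1 (78.8), Mcl1 (63.9), Bcl2l1 (49.6), Bad (27.2), Bid (21.1), Bcl2l2 (15.4), Bcl2l11 (8.40) and Bbc3 (7.50) to Bcl2 (2.42 FPKM). Of neighbours in that order, only Bcl2l11 and Bbc3 overlapped between libraries. In control cells Bax (322 FPKM) was followed by Mcl1 (71.6), Bak1 (66.8), Bcl2l1 (63.5), Bcl2l2 (58.2) and Bad (35.7), each of these overlapping the next, and then by Bid (8.35), Bbc3 (5.66) and Bcl2l11 (3.25), which likewise overlapped in turn, with Bcl2 last (2.28 FPKM). By mean level among all genes tested, Bid stood at percentile 60.6 in irradiated and 37.8 in control cells, and Bcl2l11 at 31.9 in irradiated and 17.1 in control cells.

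Ratios of FPKM within a library do not depend on the scaling between libraries, and they are given as descriptions with no test. The summed pore-forming FPKM divided by the summed protective FPKM was 2.38, 2.37 and 2.55 in irradiated libraries, against 2.23, 1.82 and 1.98 in controls. The groups did not overlap, and the mean log2 ratio was 1.28 ± 0.0608 in irradiated and 1.00 ± 0.146 in control cells (SD, n = 3 each). Without Bcl2l2 the ratio was 2.67, 2.66 and 2.95 in irradiated libraries, against 2.92, 3.34 and 2.18 in controls, and the groups overlapped.

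The BH3-only sum divided by the protective sum was 0.452, 0.490 and 0.524 in irradiated libraries, against 0.311, 0.197 and 0.353 in controls. All irradiated libraries were higher. The mean log2 ratio was -1.04 ± 0.106 in irradiated and -1.84 ± 0.441 in control cells (SD, n = 3 each), a difference of 0.81. Without Bcl2l2 the ratio was 0.508, 0.550 and 0.605 in irradiated libraries, against 0.407, 0.361 and 0.388 in controls, and the groups again did not overlap, with a log2 difference of 0.52. The BH3-only sum contains Bid and Bcl2l11, so both forms of this ratio partly restate the separation of those genes. The ratio without Bid and Bcl2l11 was not taken.

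**Figure D3:**
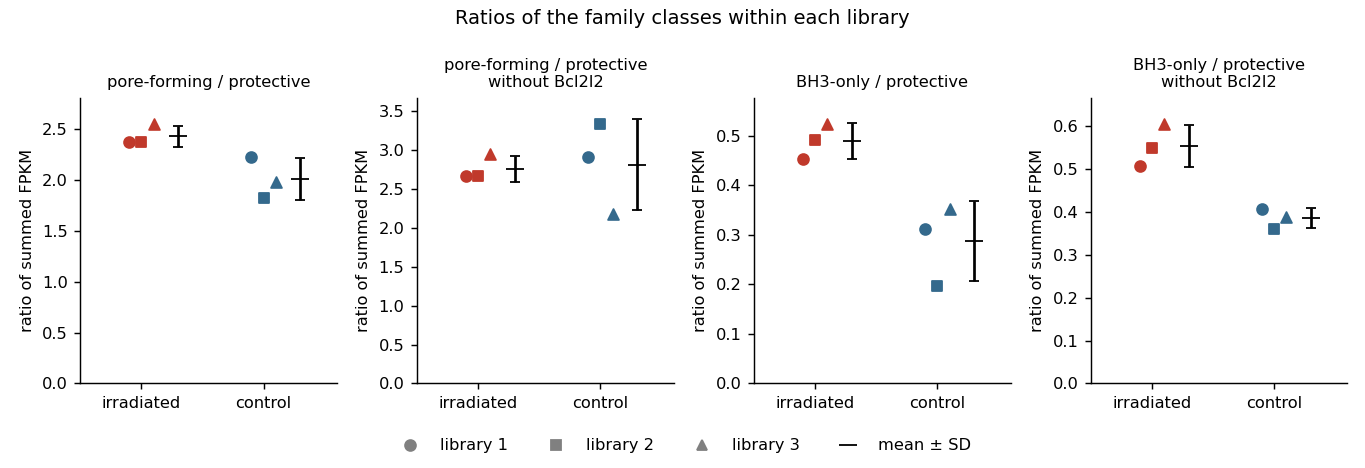
Ratio of summed FPKM between family classes in each library, with and without Bcl2l2, with the group mean and SD in black (n = 3 each). Irradiated libraries lie above controls for BH3-only to protective with Bcl2l2 (0.452 to 0.524 against 0.197 to 0.353) and without it, whereas for pore-forming to protective without Bcl2l2 they lie within the range of the controls. The BH3-only sum contains Bid and Bcl2l11, which separate on their own.

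Ratios were also taken for single pairs of a death-promoting and a protective member. The log2 ratio of Bcl2l11 to Mcl1 was -2.93 ± 0.0380 in irradiated and -4.47 ± 0.342 in control cells, and that of Bid to Bcl2l1 was -1.23 ± 0.0827 in irradiated and -3.0 ± 0.654 in control cells (SD, n = 3 each). Ratios with Bid or Bcl2l11 on top were higher in every irradiated library than in every control, whichever protective member was below. These largely restate the separation of Bid and Bcl2l11 themselves. In all, the groups did not overlap for 11 of 24 pairs, where they did not overlap for 45.4% of all genes taken singly. The log2 ratio of Bax to Bcl2, the pair most often quoted, was 6.64 ± 0.0786 in irradiated and 7.11 ± 0.530 in control cells, and the groups overlapped. That of Bax to Bcl2l1 was 2.28 ± 0.0418 in irradiated and 2.30 ± 0.357 in control cells. Bak1 was higher relative to Bcl2l1, Bcl2l2 and Mcl1 in all irradiated libraries than in any control, with differences in the log2 ratio of 0.60, 1.64 and 0.41, and its ratio to Bcl2 overlapped. The ratios share members and libraries and are not independent of one another.

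**Figure D4:**
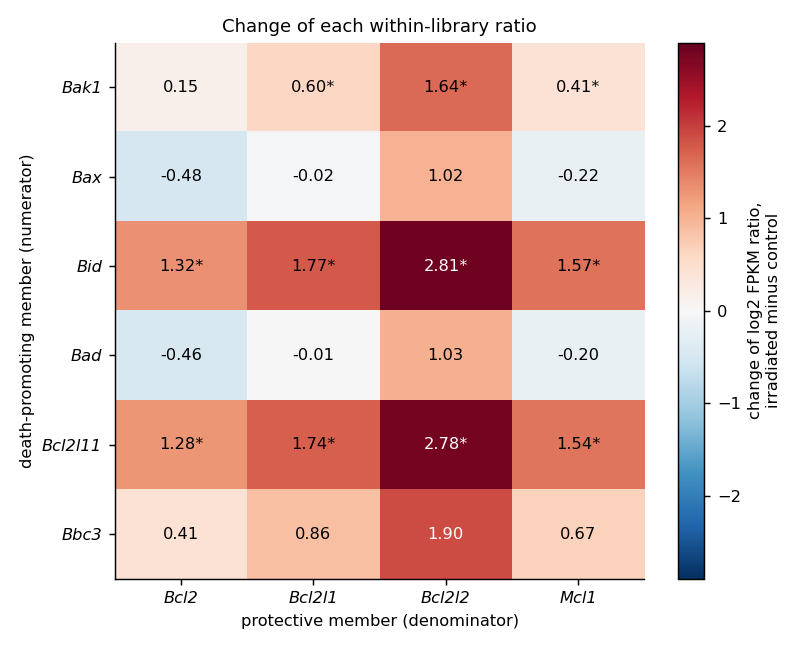
Change of the log2 FPKM ratio, irradiated minus control group mean, for each death-promoting member (rows) over each protective member (columns). An asterisk marks the 11 of 24 pairs whose groups do not overlap. The rows of Bid and Bcl2l11 are at 1.28 or more and marked in all columns, the row of Bak1 is marked except over Bcl2, and the row of Bax runs from -0.48 to 1.02 with no mark.

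Other BCL2-family genes came from a wider list. Of 15 listed, 12 were analysed here and 7 met the filter. Limma called 1 higher and 0 lower, where 9.24% of all genes rose and 2.77% fell. Of the 7, 3 had an unadjusted p below 0.05 (38.3% of all genes did), and the median log2 fold change was 0.25. The call was Bcl2l15, a low gene that met the filter through the irradiated group alone and so could pass only as higher, with 1.5, 1.48 and 1.26 FPKM in irradiated libraries, against 0.67, 0.48 and 0.12 FPKM in controls (log2 fold change 0.78, SE 0.17, limma adjusted p = 0.0388), and this call was lost under either scaling (0.0549 with the trimmed mean, 0.450 with quantiles), with a pseudocount of 0.1 (0.0663) and without control 1 (0.0870) or control 2 (0.0764). Bok, a relative of BAX and BAK, had 15.09, 15.70 and 19.39 FPKM in irradiated libraries, against 73.15, 81.96 and 22.07 FPKM in controls, and did not pass (log2 fold change -1.57, limma adjusted p = 0.0691). Pmaip1, which encodes the p53 target NOXA, and Hrk were listed at or near 0 in all 6 libraries, with at most 0.03 FPKM. The Bok and Pmaip1 rows were chosen after their values were seen.

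Among effectors downstream of the mitochondrion, 0 of 11 rose and 1 fell, where 9.24% of all genes rose and 2.77% fell. Of the 11, 4 had an unadjusted p below 0.05, a share close to the 38.3% of all genes. Endog, a mitochondrial nuclease, fell to 2.87, 2.75 and 4.12 FPKM in irradiated libraries, against 7.72, 8.61 and 5.50 FPKM in controls (log2 fold change -0.96, SE 0.21, limma adjusted p = 0.0371). Apaf1, the scaffold that cytochrome c assembles into the apoptosome, measured 11.47, 11.77 and 10.34 FPKM in irradiated libraries, against 4.01, 2.78 and 8.30 FPKM in controls, and did not pass (log2 fold change 1.12, limma adjusted p = 0.0621). It was chosen after its values were seen. Shares close to those of all genes were found among 9 genes whose proteins act on family proteins, of which 1 rose and 0 fell. That gene was Huwe1, a ubiquitin ligase that marks MCL1 for degradation, with 31.66, 28.58 and 29.90 FPKM in irradiated libraries, against 15.57, 17.23 and 21.10 FPKM in controls (log2 fold change 0.72, SE 0.15, limma adjusted p = 0.0313). The calls of Endog and Huwe1 were lost without any 1 of the irradiated libraries and without control 1 or control 2.

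Transcription factors known to act on family genes did not pass. Of 8 tested, 0 were called by limma, where 12.0% of all genes were called. An unadjusted p below 0.05 was found for 3, near the 38.3% of all genes, and the median log2 fold change was 0.41. Trp53 measured 161.83, 165.64 and 186.16 FPKM in irradiated libraries, against 160.19, 130.34 and 159.97 FPKM in controls (log2 fold change 0.19, limma adjusted p = 0.344). The FOXO genes Foxo1 and Foxo3 had log2 fold changes of 0.50 and 0.94 (limma adjusted p = 0.0606 and 0.0735). Both were higher in every irradiated library than in every control, as were 31.8% of all genes. They were chosen after their values were seen. Of 9 tested p53 targets outside the family, 5 rose and 0 fell, where 9.24% of all genes rose and 2.77% fell. Their median log2 fold change was 0.90. Mdm2, the ubiquitin ligase of p53, was 1.74 higher on the log2 scale (SE 0.12, limma adjusted p = 0.000838), Fas, a death receptor, 1.61 (SE 0.16, limma adjusted p = 0.00288) and Cdkn1a, the cell cycle inhibitor p21, 0.90 (SE 0.14, limma adjusted p = 0.0145). Fas, counted among the 5, met the filter through the irradiated group alone and so could pass only as higher. It had 3.04, 2.76 and 2.89 FPKM in irradiated libraries against 0.05, 0.41 and 0.40 FPKM in controls. Its call is no separate evidence, and it could not be tested with an irradiated library left out. Ccng1 and Trp53inp1 also rose. The number called in this list was 1 without any 1 of the irradiated libraries and 2 without control 1, settings in which 0.516% to 1.63% of all genes passed. It was 8 without control 3, 7 higher and 1 lower, where 69.1% of all genes passed. Without any 1 of the irradiated libraries or control 1, the calls ended for Cdkn1a (limma adjusted p = 0.0665 to 0.154), Ccng1 (0.0610 to 0.119) and Trp53inp1 (0.143 to 0.188), and Trp53inp1 also lost its call without control 2 (0.0686). The log2 fold change of Trp53inp1 was 2.05, and 1.01 with control 3 as the only control. Mdm2 kept its call in each of these settings. Within the family, the textbook p53 targets Bax and Bbc3 had changes of -0.38 and 0.42 that did not pass. Whether p53 or FOXO factors act on Bid or Bcl2l11 in these cells was not tested.

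The profiles most like those of the members that rose were found by the root mean square difference of log2(FPKM + 1) values over the 6 libraries, each centred on its own mean. For Bcl2l11 the nearest genes were Wdcp, Tdrd7 and Trim14, at 0.03, 0.03 and 0.05. For Bid they were Ddias, Dusp4 and Tpp1, at 0.04, 0.05 and 0.07.

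**Figure D5:**
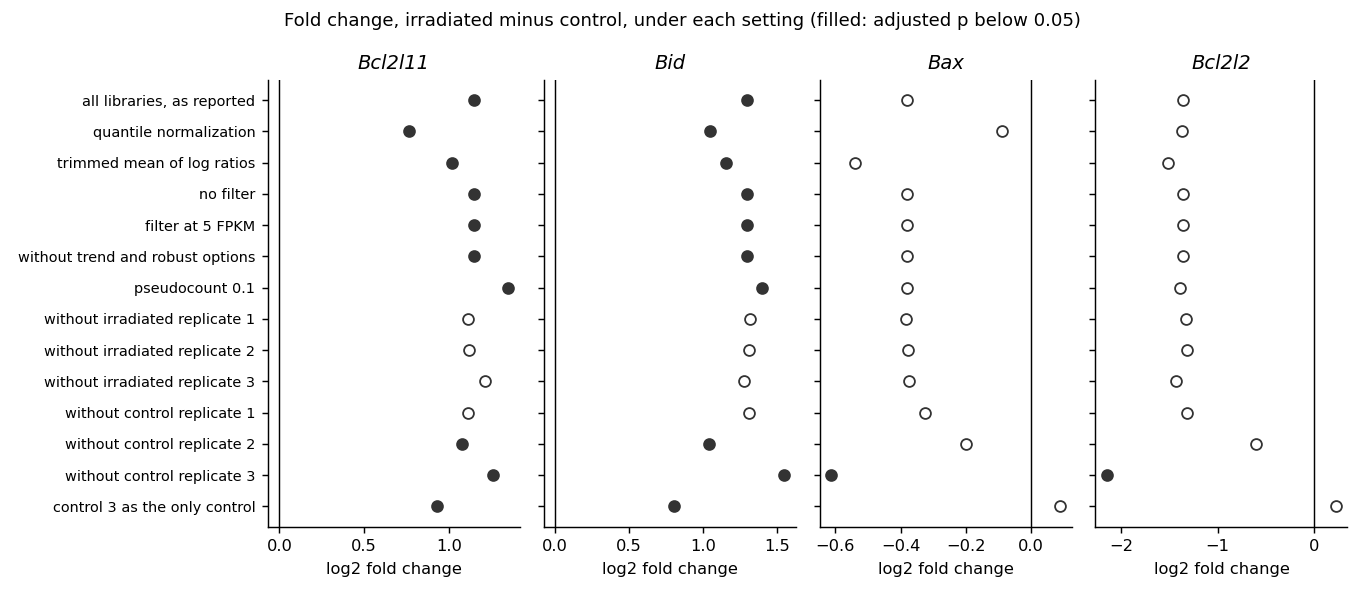
Log2 fold change, irradiated minus control, of Bcl2l11, Bid, Bax and Bcl2l2 with all libraries and under the alternative settings, filled where the limma adjusted p is below 0.05. The block for the sample number is not shown, and under it neither Bcl2l11 nor Bid passed (limma adjusted p = 0.0516 and 0.0524). Bcl2l11 and Bid stay between 0.76 and 1.55 in all settings shown, whereas Bax and Bcl2l2 lie on the other side of 0 with control 3 as the only control.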

How the data were processed

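RNA of 3 irradiated and 3 control SCC7 libraries was depleted of ribosomal RNA and sequenced, per the labels' protocols. The authors deposited FPKM values, 1 column per library, rounded to 2 decimals, per the file headers. HISAT and GRCm38.p6 are named in the submitters' processing notes. The sources used here name no counter, strand setting, annotation or filter. FPKM does not hold read numbers, so depth is unknown and counting intervals are left out. All 6 value columns were used.

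Limma 3.58.1 (R 4.3.3) was applied to log2(FPKM + 1) of genes that reached 1 FPKM in 3 or more libraries (eBayes with trend and robust options, no covariate, Benjamini-Hochberg adjustment over all 11103 genes). The procedure was tested on simulated data. Fold changes are irradiated minus control and understate the change of low genes. Gene positions and start sites are from RefSeq on GRCm38.p6, and overlaps from GENCODE M21, the same build.

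The members and lists were chosen with earlier results of these data known. Named genes are the 10 members, Trp53, Mdm2, Cdkn1a, up to 2 called genes with the smallest p per list and direction, and the 3 profiles nearest to each called member. Others named were chosen after their values were seen. Alternatives were 2 scalings, 2 filters, limma without its options, a block for the sample number, a pseudocount of 0.1, and each library left out in turn. The trimmed mean of log ratios was computed on FPKM by a direct implementation. Control 3 as the only control, and class ratios without Bcl2l2, were added after seeing the data.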

Additional observations from a re-analysis of the deposited data

How the results depend on the processing

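The number of genes called (1334) was 727 with a filter at 5 FPKM, 4093 with control 3 as the only control and 56 to 7638 with 1 library left out, the highest without control 3. Members called (2) numbered 4 with control 3 as the only control and 0 to 7 with 1 library left out, and genes called in the further lists (8) numbered 21 and 1 to 32. With control 3 as the only control only irradiated libraries give a spread, and the lone control is assumed to vary like them, so its calls are a description. With the sample number as a replicate block, 300 genes, 0 members and 2 list genes were called. Bcl2l11 and Bid then had limma adjusted p = 0.0516 and 0.0524, in a range of 6.90e-05 to 0.108 and 0.000104 to 0.179 over all alternatives. Same-numbered libraries did not deviate together (correlations -0.11, 0.02 and -0.16), and not every library correlated best with its own number. With 3 libraries per group these values cannot decide whether same-numbered libraries were handled together. Bcl2 changed sign after quantile normalization (-0.39), trimmed-mean scaling (-0.050), with control 3 alone (-0.026) and with 1 library left out (-0.034 to 0.12). With control 3 as the only control the sign also changed for Bcl2l2 (0.23), Bax (0.088), Bad (0.076) and Bbc3 (-0.25). The log2 class ratios, pore-forming to protective (0.28) and BH3-only to protective (0.81), were 1.02 and 1.94 without the most abundant member of each class. The first was -0.0056 without Bcl2l2, and the second 0.47 with control 3 as the only control. Class ratios had no blocked fit, as they come from no test. The cause of these differences was not tested. Unknown depth limits what can be said of the low genes Bcl2, Bbc3 and Bcl2l11.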
